A study of Mus musculus with 6 samples.

Results

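The calcitonin and adrenomedullin system was followed through 9 genes: the peptide genes Calca, Calcb, Adm and Adm2, the receptor genes Calcr and Calcrl, and the receptor activity-modifying protein (RAMP) genes Ramp1, Ramp2 and Ramp3. The genes were taken by name and not ranked by their measured levels, from 20145 genes that could be named on the array. Earlier results of these data were known when they were chosen, so the choice was not blind to them. All 12 of their probes, out of 55681 on the array, are reported separately. RNA came from whole uteri of pregnant mice on gestation day (GD) 3.5, collected after natural mating at 8 to 10 weeks of age, with the embryos flushed out. Each of 6 uteri was hybridized to its own array, read in 1 colour. The 3 Sox17 f/f females, labelled WT, carry the floxed Sox17 allele without Cre. The 3 Sox17 ed/ed females, labelled Sox17 KO and LtfiCre/+ Sox17 f/f, carry the same floxed allele with an iCre expressed from the lactoferrin locus. That recombinase acts in the uterine epithelium from puberty on, so the other compartments of the uterus keep the gene.

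The peptides of this family share a ring near one end and act on 2 related receptors of class B, CALCR and CALCRL. CALCRL needs a RAMP partner to reach the cell surface and to take its ligand preference: with RAMP1 it prefers calcitonin gene-related peptide (CGRP), and with RAMP2 or RAMP3 it prefers adrenomedullin. CGRP and adrenomedullin widen blood vessels through cyclic AMP, and calcitonin is a known product of the glandular epithelium of the rodent uterus around implantation.

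Deletion of Sox17 was visible on the arrays. Both Sox17 probes fell in Sox17 ed/ed uteri, with log2 changes of -2.45 and -2.97 (limma, adjusted p = 9.53e-05 and 6.09e-05). Values below are log2 signals after quantile normalization between the 6 arrays, each probe tested with limma and adjusted over the 32735 probes well above background on at least 3 arrays. A probe counts as changed at the thresholds of the study's methods, an unadjusted p under 0.01 and a fold of at least 1.4. The arrays had 56.8% to 65.7% of their spots well above background and 0 saturated spots. They lay on 1 slide with each genotype in its own line of it, so the place on the slide and the genotype cannot be told apart. In RNA of a whole organ, fewer cells of a type and less RNA per cell cannot be told apart either.

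In Sox17 ed/ed uteri 1 Calca probe fell below background and Ramp3 rose 2.97-fold, while the other 7 probes tested did not pass both thresholds. Of the 12 probes, 9 from 6 genes passed the filter on low signal. Of those 9, 2 changed, against 9.85% of all probes tested. The 1 that rose stands against 4.54% of all probes and the 1 that fell against 5.32%. The arrays of the genotypes did not overlap for 6 of the 9, against 34.5% of all probes tested. The median log2 change was -0.14 over the 9 probes and -0.009 over all probes tested. The probes of Calcb, Calcr and Adm2 did not pass the filter.

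**Figure D1:**
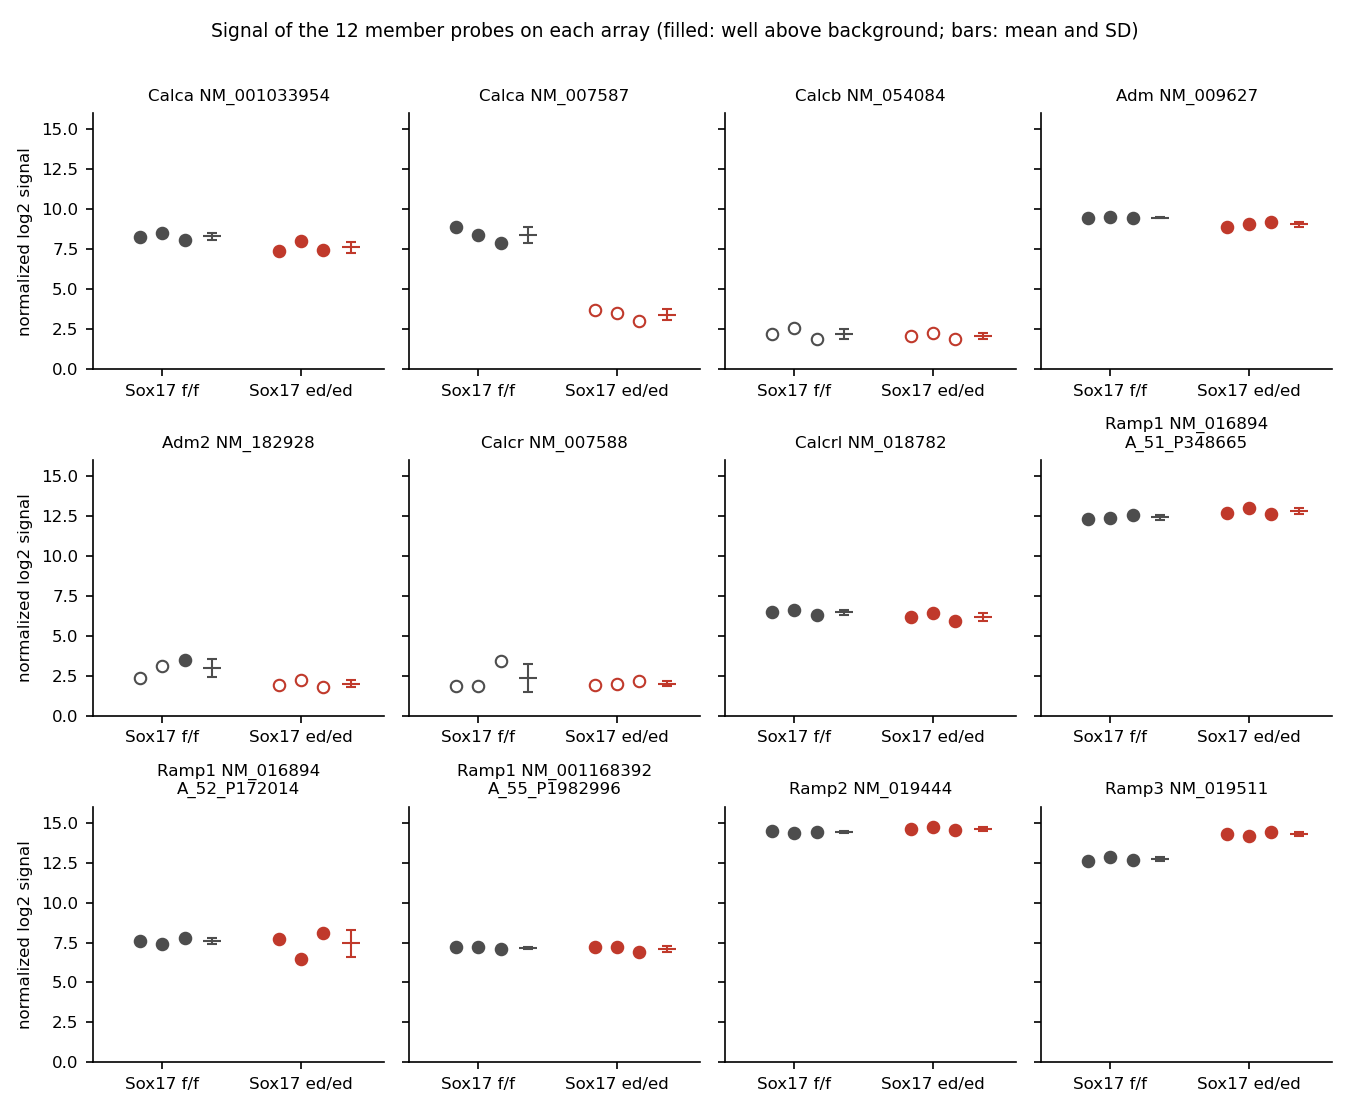
Normalized log2 signal (vertical axis) of each of the 12 probes on the 3 Sox17 f/f arrays (grey) and the 3 Sox17 ed/ed arrays (red). Filled points are well above background and open points are not, and the bars give mean and SD. The Calca probe NM_007587 drops to open points in Sox17 ed/ed uteri, Ramp3 rises, and Calcb and Calcr are open on every array.

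Calca encodes calcitonin and, by alternative splicing, alpha CGRP, and the array holds 2 probes for it, named here by the RefSeq transcript each was designed on. The probe for NM_007587 read 8.87, 8.36 and 7.91 on the Sox17 f/f arrays and 3.72, 3.51 and 3.01 on the Sox17 ed/ed arrays. It was well above background on all 3 control arrays and on 0 of 3 Sox17 ed/ed arrays, with a wide gap between the genotypes. As an approximate bound, each Sox17 ed/ed signal was set at the lowest signal flagged as well above background on its array. On that bound the change is at least 20.8-fold lower (fitted log2 change -4.96, standard error (SE) 0.29, limma adjusted p = 0.000433). Normexp background correction, with an offset of 50, lifts dim signals and so shrinks their log2 changes, here and below. With it the fitted change was -2.52, and the probe still passed both thresholds.

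The other Calca probe, for NM_001033954, stayed well above background on all 6 arrays. It read 8.28, 8.54 and 8.09 in Sox17 f/f uteri and 7.39, 8.01 and 7.46 in Sox17 ed/ed uteri. Every Sox17 ed/ed array lay below every control array, and the Sox17 ed/ed replicate 2 lay nearest to them. The log2 change was -0.69 (SE 0.20, 95% confidence interval -1.19 to -0.18, limma adjusted p = 0.0936), and its unadjusted p was above the threshold. Without Sox17 ed/ed replicate 2 the change was -0.88 (limma adjusted p = 0.0414) and passed both thresholds.

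The NM_007587 probe fell further than the NM_001033954 probe, by an amount that its dim Sox17 ed/ed signals leave uncertain. The NM_001033954 signal minus the NM_007587 signal was -0.59, 0.18 and 0.18 in Sox17 f/f uteri. With the dim probe set at its approximate bound, a choice made after seeing the data, it was at least 3.18, 3.77 and 3.90 in Sox17 ed/ed uteri. The difference in log2 change was then at least 3.69 on this scale, and 1.98 with normexp correction. Without the bound it was 4.28 (two-sided exact permutation p = 0.1, which 3 arrays against 3 cannot go below, and 0.2 after adjustment over the 4 probe pairs within a gene). Which product of Calca each probe reads, and whether Calca and Calcb transcripts bind each other's probes, was not settled here, since probe sequences were not used.

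Calca and Calcb are neighbouring protein-coding genes. To show the sequence next to the strongest change, the 250 bases before the annotated start of Calca are given, from RefSeq on GRCm38.p6, chr7:114636358-114636607, minus strand, 5′ to 3′. Capitals mark matches to the motifs searched for on both strands, namely the SOX core ATTGTT, the GATA-binding letters AGATAA, the core TGACG of the cyclic AMP response element, the nuclear receptor arm GGTCA and the forkhead core TGTTTAC.
Calca: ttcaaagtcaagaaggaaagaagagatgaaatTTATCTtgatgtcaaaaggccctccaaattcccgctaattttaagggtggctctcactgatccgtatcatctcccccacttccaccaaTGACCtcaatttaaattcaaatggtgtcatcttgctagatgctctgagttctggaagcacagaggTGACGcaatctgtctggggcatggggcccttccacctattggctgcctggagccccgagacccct
The window holds 1 GATA match starting 218 bases before the start, 1 nuclear receptor arm at 130 and 1 cyclic AMP element core at 65. Among all 32851 annotated windows of this length, 9.99% held the GATA letters, 35.2% the receptor arm and 17.8% the cyclic AMP core. The SOX core, found in 9.42% of windows, and the forkhead letters, in 3.17%, had no match in the Calca window. The receptor arm, read on the other strand, and the cyclic AMP core begin with the same bases, though no match here belongs to both. A match describes letters only.

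Markers of 2 tissues that can hold Calca transcripts, uterine gland and neuron, were read as well. Over all genes tested through their brightest probe, 12.0% passed both thresholds. All 8 uterine gland markers fell, with a median log2 change of -5.76, or -5.01 with 3 dim genes at their bounds, and their summed signal was 34697 to 55508 in Sox17 f/f uteri and 216 to 314 in Sox17 ed/ed uteri. With normexp correction all 8 still passed. The study names several of these markers, and Calca, among gland genes changed in these same arrays, so their fall was not an independent result. Among the 8 markers, the gland regulator Foxa2 fell by 4.51, and Prss29, a gland protease, was at least 483-fold lower by the approximate bound. In sections of the same gestation day, the study counted fewer glands in a broader Sox17 deletion than in Sox17 ed/ed or Sox17 f/f uteri. FOXA2 protein was not detected in the glands of Sox17 ed/ed uteri. Of 9 neuron markers, 6 were tested, and Prph (-2.03) and Tubb3 (-1.41), which encode filament and tubulin proteins, fell, with smaller changes of -0.95 and -0.58 under normexp correction. The other 4 tested did not pass, with changes between -0.25 and 0.22. The summed neuron signal, 3244 to 4250 in Sox17 f/f and 3852 to 4702 in Sox17 ed/ed uteri, was mostly that of Snap25, a synaptic gene, at 84.5% to 93.3%. The 5 tested genes other than Snap25, a split that was not planned, summed to 472 to 529 in Sox17 f/f and 316 to 364 in Sox17 ed/ed uteri, without overlap. They include Prph and Tubb3, and Snap25 itself changed by 0.22. The sensory neuron channel gene Scn10a was above background on no array. The part of either tissue in the Calca change was not tested.

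Calcb, the gene for beta CGRP, gave no measurable signal. Its processed signal was 3.56, 5.35 and 4.33 on the Sox17 f/f arrays and 4.13, 4.76 and 3.75 on the Sox17 ed/ed arrays, and no array had it well above background. The lowest signal that counted as well above background was 13.1 to 18.0 across the arrays, so these values have no usable order.

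Adm encodes adrenomedullin and was well above background on all 6 arrays. It read 9.45, 9.49 and 9.44 in Sox17 f/f uteri and 8.91, 9.05 and 9.21 in Sox17 ed/ed uteri. The controls lay close together, and every Sox17 ed/ed array lay below them. The log2 change was -0.40 (SE 0.09, 95% interval -0.64 to -0.17, limma adjusted p = 0.0504), a 1.32-fold lower signal that met the p threshold but not the fold threshold. Across the processing alternatives the change stayed between -0.48 and -0.33, with adjusted p from 0.0205 to 0.141.

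Adm2, which encodes adrenomedullin 2 or intermedin, was at the edge of detection. Its processed signal was 4.37, 8.04 and 18.5 in Sox17 f/f uteri and 4.03, 4.77 and 3.62 in Sox17 ed/ed uteri. Only the Sox17 f/f replicate 3 array was well above background, so no fold is given.

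Calcr, the gene for the calcitonin receptor, was well above background on 0 of 6 arrays. Processed signals were 3.09, 3.11 and 17.9 in Sox17 f/f uteri and 3.98, 4.39 and 4.22 in Sox17 ed/ed uteri, with 1 high control array. That value, on the Sox17 f/f replicate 3 array, exceeded the lowest signal flagged there as well above background, 16.3, but was not flagged itself, so no fold is given.

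Calcrl, the receptor shared by CGRP and adrenomedullin, was measured on all 6 arrays. It read 6.51, 6.59 and 6.30 in Sox17 f/f uteri and 6.19, 6.43 and 5.92 in Sox17 ed/ed uteri. The genotypes overlapped, Sox17 ed/ed replicate 2 lying above Sox17 f/f replicate 3. The log2 change was -0.29 (SE 0.15, limma adjusted p = 0.295), and its 95% interval of -0.67 to 0.09 leaves room for a fall past the fold threshold.

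The RAMP genes did not move together. Ramp3, whose protein gives CALCRL an adrenomedullin preference and steers the receptor after uptake, read 12.59, 12.85 and 12.69 in Sox17 f/f uteri and 14.27, 14.17 and 14.40 in Sox17 ed/ed uteri. All Sox17 ed/ed arrays lay well above all controls. The log2 change was 1.57 (SE 0.10, 95% interval 1.32 to 1.83, limma adjusted p = 0.000627), which is 2.97-fold higher with an interval of 2.49 to 3.55. Under the alternatives tried the change lay between 1.51 and 1.64 and passed both thresholds each time.

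The 250 bases before the annotated start of Ramp3, the member that rose, are given as for Calca, from GRCm38.p6, chr11:6658283-6658532, plus strand. None of the 5 motifs had a match, so there are no capitals.
Ramp3: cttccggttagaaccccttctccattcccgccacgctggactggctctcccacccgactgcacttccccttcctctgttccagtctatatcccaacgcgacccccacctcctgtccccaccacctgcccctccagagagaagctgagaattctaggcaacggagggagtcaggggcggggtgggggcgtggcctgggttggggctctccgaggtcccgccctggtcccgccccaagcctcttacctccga
Of the 9 genes, 7 had annotated promoter windows, and the 1 match to the SOX core among them lay in Calcrl, 221 bases before its start.

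Ramp2, whose protein pairs with CALCRL in vessels, read 14.45, 14.34 and 14.43 in Sox17 f/f uteri and 14.57, 14.72 and 14.51 in Sox17 ed/ed uteri. The genotypes were close but did not overlap. The log2 change was 0.19 (SE 0.09, 95% interval -0.02 to 0.41, limma adjusted p = 0.216), and its upper end lies below the fold threshold of 0.485 on this scale.

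Ramp1, whose protein makes CALCRL a CGRP receptor, had 3 probes that did not agree in direction. Probe A_51_P348665 (NM_016894) read 12.31, 12.34 and 12.56 in Sox17 f/f uteri and 12.71, 13.00 and 12.65 in Sox17 ed/ed uteri. These did not overlap, and the log2 change was 0.39 (SE 0.13, limma adjusted p = 0.113). Probe A_52_P172014, for the same transcript, read 7.58, 7.39 and 7.76 and then 7.75, 6.48 and 8.09. Here Sox17 ed/ed replicate 2 stood far below the rest, and the change of -0.14 (SE 0.41) became 0.34 without that array. Probe A_55_P1982996 (NM_001168392) read 7.22, 7.21 and 7.08 and then 7.20, 7.19 and 6.91, an overlapping pair of groups with a change of -0.07 (SE 0.11), or 0.03 without Sox17 ed/ed replicate 3. None of the 3 passed the thresholds.

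**Figure D2:**
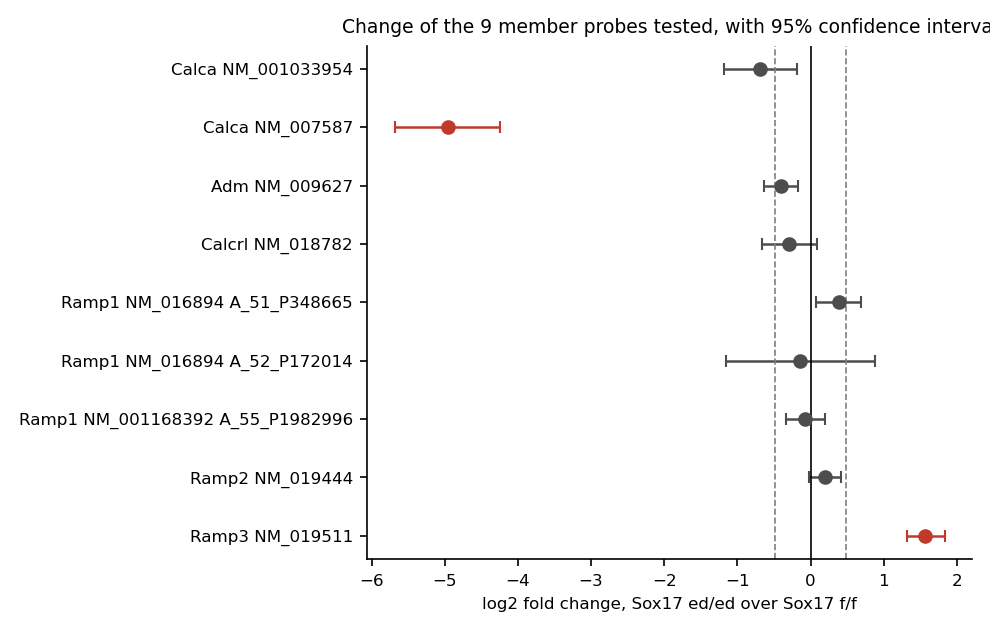
Log2 fold change of Sox17 ed/ed over Sox17 f/f (horizontal axis) for the 9 probes tested, with 95% confidence intervals from limma. Dashed lines mark the fold threshold, red points passed both thresholds, and the value for Calca NM_007587 rests on Sox17 ed/ed signals not well above background. Ramp3 (1.57) is the red point to the right and Calca NM_007587 (-4.96) the one to the left.

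Set against each other within an array, Ramp3 rose relative to Ramp2, Ramp1 and Calcrl. The Ramp3 signal minus the Ramp2 signal was -1.86, -1.49 and -1.75 in Sox17 f/f uteri and -0.30, -0.55 and -0.11 in Sox17 ed/ed uteri, and the groups did not overlap. The Ramp3 change exceeded that of Ramp2 by 1.38, that of Ramp1 (A_51_P348665) by 1.19 and that of Calcrl by 1.86. The Ramp2 change exceeded that of Calcrl by 0.48. The change of the same Ramp1 probe exceeded that of Calcrl by 0.68 and that of Ramp2 by 0.19. Against Ramp2 the other Ramp1 probes, A_52_P172014 and A_55_P1982996, had the opposite sign (-0.33 and -0.26). They lay 0.15 and 0.22 above Calcrl, while Ramp3 exceeded them by 1.71 and 1.64. For A_52_P172014 the genotypes overlapped against both Ramp2 and Calcrl, with Sox17 ed/ed replicate 2 far below the other arrays. The 6 comparisons with the A_51_P348665 probe gave a two-sided exact permutation p = 0.1, which this design cannot go below, and 0.133 after adjustment over the 12 comparisons with every Ramp1 probe.

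**Figure D3:**
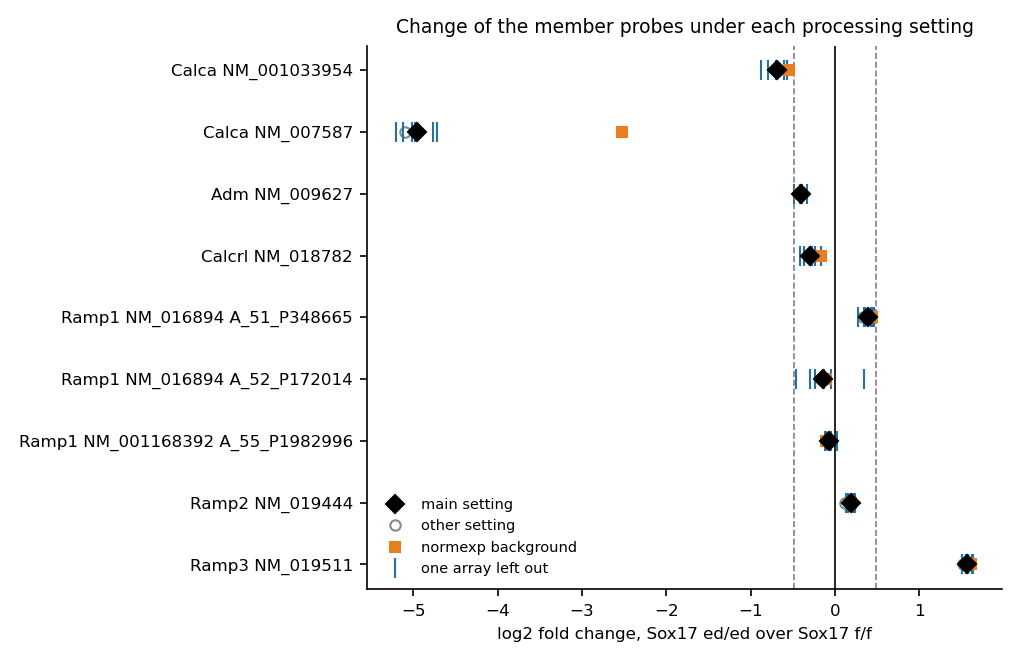
Log2 fold change of Sox17 ed/ed over Sox17 f/f (horizontal axis) of the 9 probes under the main setting (diamonds), with 1 array left out (blue ticks), with normexp background correction (squares) and under the other settings (circles). Dashed lines mark the fold threshold. Ramp3 stays between 1.51 and 1.64, Calca NM_007587 moves from -4.96 to -2.52 with normexp, and Ramp1 probe A_52_P172014 crosses 0 when 1 array is left out.

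Vessels and smooth muscle are known to carry these receptors, so their markers were read beside them. Of 12 blood endothelium markers, all tested, 1 rose and 2 fell past both thresholds. Over all genes tested, 5.79% rose and 6.24% fell past both, and the marker counts below stand against the same shares. The blood endothelium median log2 change was -0.34, with a summed signal of 74502 to 79363 in Sox17 f/f and 56147 to 61224 in Sox17 ed/ed uteri. Vwf, the gene for von Willebrand factor, changed by -0.84, and Esam, an endothelial adhesion gene, by -0.57, whereas the tight junction gene Cldn5 changed by 0.52. The Vwf call was lost without Sox17 ed/ed replicate 3 (-0.75) or Sox17 f/f replicate 1 (-0.78), with an ordinary linear model and with the replicate number as a block, and the Esam call with that block. The Cldn5 call was lost without Sox17 ed/ed replicate 3 (0.47) or Sox17 f/f replicate 2 (0.45), with normexp correction (0.47) and with a 75th percentile shift in place of quantile normalization.

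Of 7 lymphatic endothelium markers, 6 were tested and Pdpn, the podoplanin gene, fell by 0.72, while Prox1 (0.01) and Lyve1 (0.02) did not pass. The lymphatic median was 0.02, with a summed signal of 5707 to 6688 in Sox17 f/f and 4219 to 4454 in Sox17 ed/ed uteri. Each such sum is weighted to its brightest genes. The pericyte marker Notch3 (-0.64), 1 of 7, and the contractile gene Actg2 (-0.64), 1 of 8 smooth muscle markers, fell past both thresholds. The pericyte median was -0.20, with a summed signal of 17526 to 18507 in Sox17 f/f and 14100 to 14515 in Sox17 ed/ed uteri. For smooth muscle the median was -0.28, and the sums were 494465 to 546202 in Sox17 f/f and 368430 to 443905 in Sox17 ed/ed uteri. The 10 endometrial stroma markers had a median of 0.03, with sums of 324249 to 329474 in Sox17 f/f and 289214 to 311895 in Sox17 ed/ed uteri. Of 9 uterine epithelium markers, 4 rose (Krt19 at 2.10, Krt7 at 1.46, Krt8 at 0.69 and Cdh1 at 0.59) and Cldn3 fell by 1.16; Krt8 lost its call without any array but Sox17 ed/ed replicate 2, at 0.57 to 0.72. The other 4 uterine epithelium markers did not pass, and the median of the list was 0.10. Its summed signal was higher, at 47794 to 49596 in Sox17 f/f and 50786 to 62846 in Sox17 ed/ed uteri. The part of these tissues in the rise of Ramp3 was not tested.

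**Figure D4:**
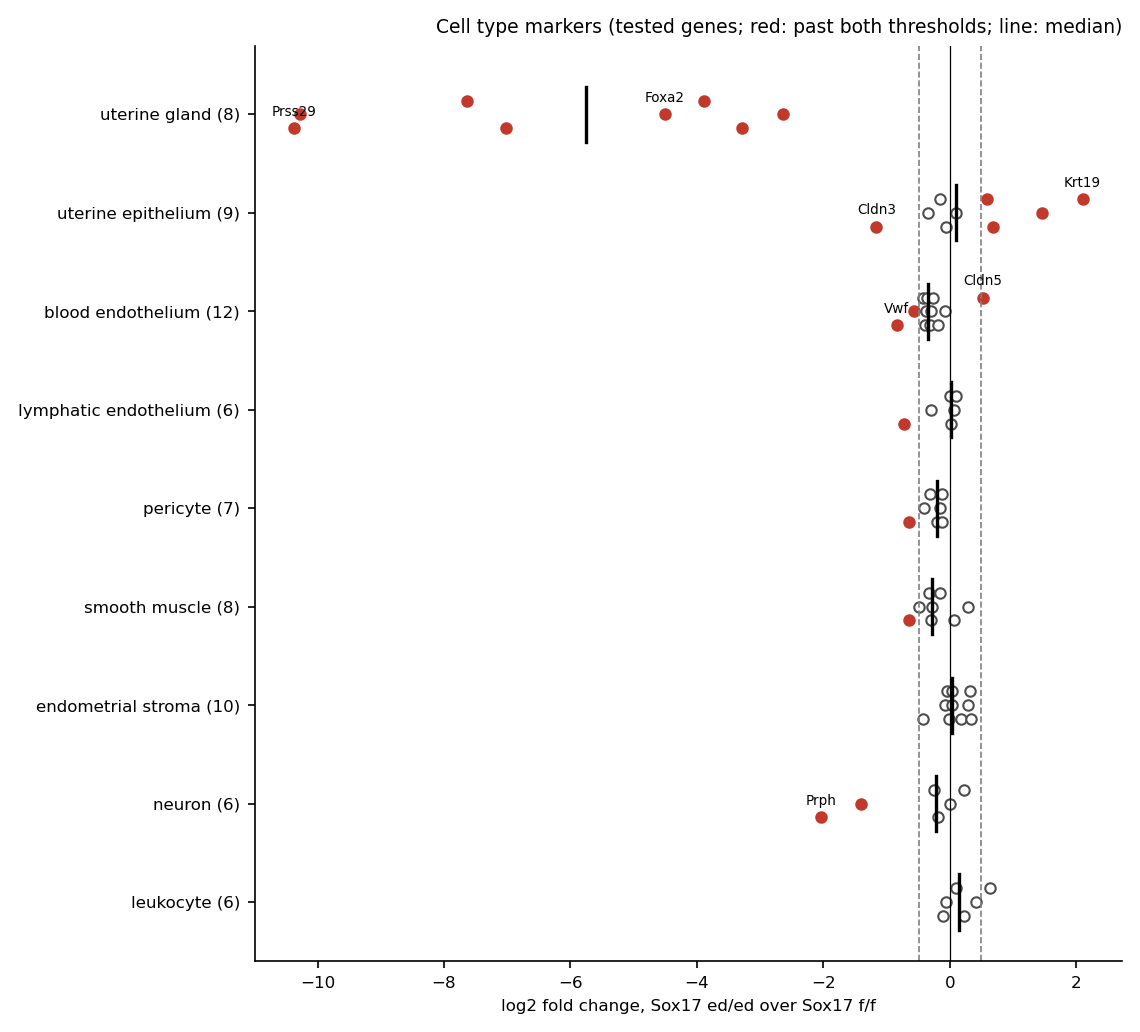
Log2 fold change of Sox17 ed/ed over Sox17 f/f (horizontal axis) of the tested markers of 9 cell types, with the number tested in brackets. Each point is a gene, red points passed both thresholds, dashed lines mark the fold threshold and the thick line is the median. Gland markers lie far to the left (median -5.76), blood endothelium lies slightly left (-0.34), and stroma is centred near 0 (0.03).

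The rest of the pathway was read from 6 lists of 87 genes in all, of which 73 were tested through their brightest probe. Of these, 7 rose and 11 fell, so 18 of 73 passed, against 12.0% of the 14847 genes tested on the array (5.79% higher and 6.24% lower). The lists were chosen with earlier results of these data known, so no excess is read from these shares. The medians of the lists lay between -0.06 and 0.36, and that of all genes was -0.002. Adjusted p-values in the next paragraphs are over those genes.

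Genes that make and remove the peptides came first. Of 9 tested processing genes, 1 passed: Pcsk5, a proprotein convertase, fell by 0.82 (limma adjusted p = 0.0052). Pam, which adds the amide that calcitonin, CGRP and adrenomedullin need for activity, changed by 0.19 and did not pass. Iapp, the amylin gene of the same family, was well above background on 0 of 6 arrays. Of 7 clearance genes, 2 fell. Mme, the gene for neprilysin, which cleaves CGRP and adrenomedullin, read 10.45, 10.39 and 10.43 in Sox17 f/f uteri and 7.39, 7.67 and 7.23 in Sox17 ed/ed uteri, a log2 change of -3.00 (SE 0.12, limma adjusted p = 8.4e-05). Ece1, an endothelin-converting enzyme, changed by -0.52, a call lost without Sox17 ed/ed replicate 3 (-0.47) and with normexp correction (-0.48). Ackr3, a decoy receptor for adrenomedullin, changed by 0.10 and did not pass.

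Downstream of the receptors, 5 of 27 tested genes of cyclic AMP signalling passed. Adcy1, an adenylyl cyclase, rose by 0.71. Crem, a transcription factor of the cyclic AMP response, read 9.92, 9.74 and 9.74 in Sox17 f/f uteri and 8.44, 8.56 and 8.29 in Sox17 ed/ed uteri, a log2 change of -1.37 (limma adjusted p = 0.000634). Nos3, the endothelial nitric oxide synthase, and Adcy4, another cyclase, fell by 0.79 and 0.69. Pde4d, a phosphodiesterase, passed at -0.50 but lost its call without any array but Sox17 ed/ed replicate 2, at -0.54 to -0.40, and with normexp correction (-0.40). Of 8 genes of receptor trafficking, 2 rose: Slc9a3r1, whose PDZ protein binds RAMP3, at 0.87 (limma adjusted p = 0.00826), and the receptor kinase gene Grk3 at 0.73.

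Of 8 tested class B receptors and other RAMP partners, out of 15, Vipr2, a receptor for vasoactive intestinal peptide, rose by 0.65. The glucagon receptor gene Gcgr passed at 0.70, a call lost without any of 4 arrays (Sox17 ed/ed replicates 1 and 3, Sox17 f/f replicates 2 and 3), at 0.59 to 0.72, and with normexp correction (0.34).

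Among 14 tested genes of other vasoactive peptides and receptors, out of 18, 2 rose and 4 fell. Edn2, an endothelin, rose by 1.66 and the endothelin receptor gene Ednrb by 0.60, and neither passed with normexp correction (0.48 each). Tacr1, the receptor for substance P, which is released with CGRP by sensory nerves, read 7.73, 7.57 and 7.32 in Sox17 f/f uteri and 3.47, 3.48 and 4.11 in Sox17 ed/ed uteri. With 0 of 3 Sox17 ed/ed arrays well above background, it was at least 10.2-fold lower by the approximate bound (fitted log2 change -3.86, limma adjusted p = 0.000202, and -1.75 with normexp correction). Edn1 and Agt, the genes for endothelin 1 and angiotensinogen, fell by 0.81 and 0.62, and Agt did not pass with normexp correction (-0.26). Nppc, a natriuretic peptide gene, passed at -1.51, a call kept with only Sox17 ed/ed replicate 3 left out and lost without any other array, at -1.61 to -1.21, and with normexp correction (-0.44).

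**Figure D5:**
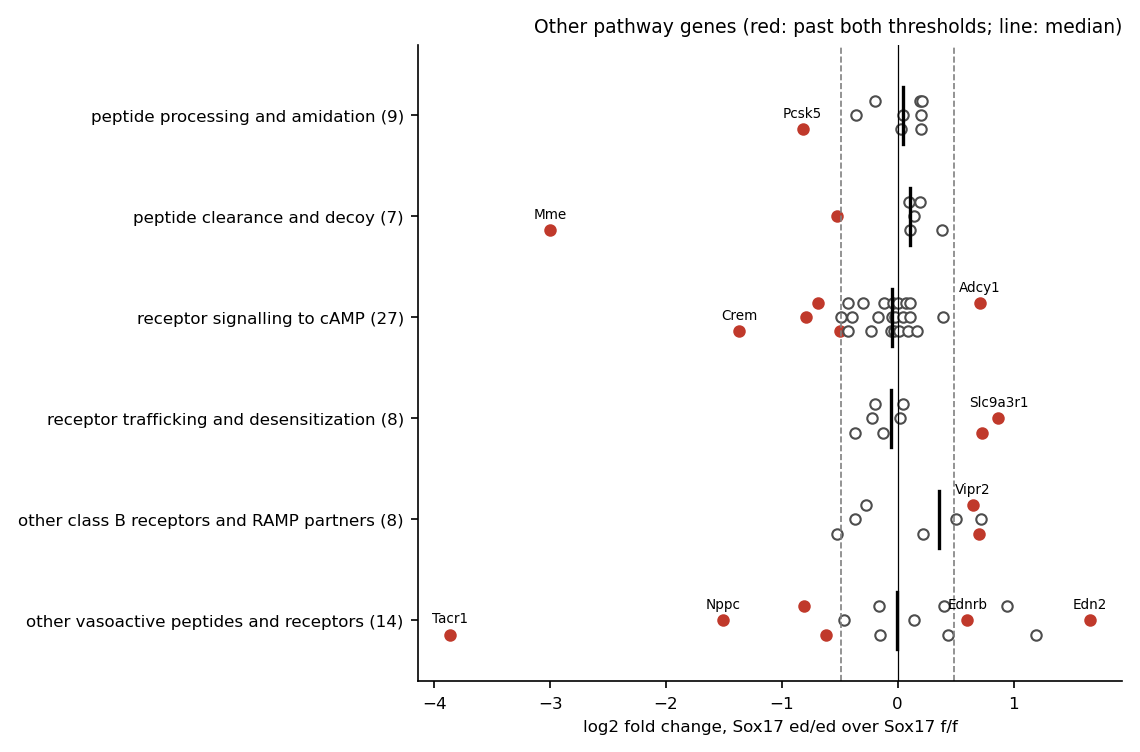
Log2 fold change of Sox17 ed/ed over Sox17 f/f (horizontal axis) of the 73 tested pathway genes in 6 lists, with the number tested in brackets. Each point is a gene, red points passed both thresholds, dashed lines mark the fold threshold and the thick line is the median. Tacr1 and Mme lie farthest to the left, the latter at -3.00, and Edn2 farthest to the right, at 1.66.

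Genes whose signal followed the changed members most closely were ranked by Pearson correlation over the 6 arrays, among 14761 genes. For the Calca probe NM_007587 they were Ahr (r = 0.9996), the aryl hydrocarbon receptor gene, Glul (0.9988), the glutamine synthetase gene, and Cndp1 (0.9979), a dipeptidase gene. For Ramp3 they were Grik4 (0.9992), a glutamate receptor gene, Rfc3 (0.9986), a replication factor gene, and Myh10 (0.9983), a non-muscle myosin gene. The Sox17 ed/ed signals of that Calca probe were not well above background. With 6 arrays in 2 genotypes such values are common: 100 genes had r over 0.99 with Calca and 94 with Ramp3. The measure ignores size, since Ahr fell by 0.90 and Glul by 1.31 on the log2 scale, and Rfc3 rose by 0.53.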

How the data were processed

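RNA of 6 whole uteri, 3 per genotype as the labels give it, was measured on Agilent G3 mouse arrays. The authors deposited scanner output, in which Feature Extraction had subtracted the background of each spot intensity without normalization between arrays (version 11.0.1.1 in the file headers, 9.1 in the submitters' processing notes), and a table of the same intensities, within 0.191% of the scanner values. Subtraction leaves dim values uncertain on a log scale, hence the bounds.

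From the processed signal, control and outlier spots were left out, log2 values quantile normalized and spots of a probe averaged. A probe was kept if at least 3 of 6 arrays had it well above background, 32735 of 55681 (58.8%), and tested with limma 3.58.1 (lmFit and eBayes, R 4.3.3) with Benjamini-Hochberg adjustment; the methods name no test. The steps were tested on simulated data with seed 1. Tallies and plots used Python 3.11.15, pandas 2.3.3 and matplotlib 3.10.9. Accessions named 26582 probes through a RefSeq table of GRCm38.p6. A bound sets the brighter group's mean against the dim arrays, each at its lowest signal flagged as well above background or at the probe's signal where that is higher. A spot's own limit can lie above that lowest signal, so a bound is approximate. Summed marker signals add linear normalized values. The number of arrays limits precision.

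Members, gene lists and tests were chosen with earlier results of these data known. Named were all members, in each pathway list the called genes with the largest rise and fall (2 each way where at least 4 were called), in each marker list described the called gene with the largest change each way and those at background on every array, and the 3 genes most correlated with each changed member. Ece1, Adcy4, Pde4d, Grk3, Vipr2, Edn1, Agt, Pam, Ackr3, Esam, Tubb3, Snap25, Foxa2, Prox1, Lyve1, Krt19, Krt7, Krt8 and Cdh1 were named after their values were seen. The leukocyte, squamous epithelium, mesothelium, adipocyte, exocrine pancreas, ovary and erythrocyte markers had 0 to 2 called genes each, and 1 uterine epithelium marker beyond the 9 counted is not reported here. Alternatives concerned normalization, background, filter, variance model, threshold, probes per gene, the deposited table, replicate block and each array left out. A call that a dim probe lost with normexp can reflect its offset of 50.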

Additional observations from a re-analysis of the deposited data

How the results depend on the processing

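Ramp3 and the Calca probe NM_007587 passed both thresholds under each alternative in which they were tested, 14 and 13. The count of member probes changed was 2 and ranged from 2 to 3 with 1 array left out; it was 1 when all 6 arrays had to be well above background, which removes that Calca probe, and 1 with the brightest probe per gene, which leaves the same probe out. The Calca probe NM_001033954 passed with normexp (-0.54), with an eBayes trend (-0.69) and without Sox17 ed/ed replicate 2 (-0.88). The difference in change between the Calca probes was -4.28, a value that rests on dim Sox17 ed/ed signals also with any 1 array left out, and -1.98 with normexp. Pathway genes changed numbered 18, 15 to 20 with 1 array left out, and 5 at a fold threshold of 2, where all probes changed numbered 1406 in place of 3226. Reversed were the Ramp1 probe A_52_P172014 without Sox17 ed/ed replicate 2 (-0.46 to 0.34 over the arrays left out) and the Ramp1 probe A_55_P1982996 without Sox17 ed/ed replicate 3 (-0.12 to 0.03); the cause was not tested. The planned normexp on the mean spot signal was not run, because the files used here give no such column; the median spot signal was used instead, a choice made after seeing the data.

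The replicate numbers did not pair the arrays, as same-numbered arrays of the 2 genotypes deviated together with correlations of 0.0588, -0.038 and 0.0135. With the replicate block, 3 member probes changed (Ramp3 1.57, Calca NM_007587 -4.96 and Calca NM_001033954 -0.69), 14 pathway genes and 3019 probes in all. Named genes that lost their call with the block were Vipr2, Gcgr, Nppc, Pde4d, Vwf, Esam, Cdh1 and Krt8; of these, Gcgr, Nppc, Pde4d, Vwf and Krt8 also lost it with an ordinary linear model.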
